A study of Mus musculus with 28 samples.

Results

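The genes described here are 10 components of insulin and insulin-like growth factor (IGF) signalling: the receptors Insr and Igf1r, the receptor substrates Irs1 and Irs2, and the secreted IGF binding proteins Igfbp2, Igfbp3, Igfbp4, Igfbp5, Igfbp6 and Igfbp7. They were taken by symbol, and 10 of 10 were found among the 56748 genes counted. Total RNA depleted of ribosomal RNA was sequenced from mouse mammary epithelial cells in 28 libraries, which held between 134117581 and 222065843 counts. The groups were 10 libraries of the untransformed line HC11 with DOX, 10 libraries of HC11 with DOX + DIP, and 8 libraries of the cancer line 4T1 with DOX. DOX was thus common to every library. The labels spell out neither abbreviation and name no transgene. In work on HC11, a line used as a model of lactogenic differentiation, DIP usually stands for dexamethasone, insulin and prolactin. 4T1 is a transplantable mammary carcinoma line. Each line is a single line, so a difference between HC11 and 4T1 is a difference between these lines. Nothing in the labels says whether libraries of a group came from separate cultures, so p-values measure only the spread between libraries. In both HC11 groups libraries 3 and 5, 4 and 6, 7 and 9, and 8 and 10 were close pairs over the 10 genes. If such pairs were not independent, p-values that treat each library as 1 replicate would be too small.

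Insulin and the IGFs act through related tyrosine kinase receptors, the products of Insr and Igf1r. The active receptors phosphorylate Irs1 and Irs2, which recruit PI3-kinase and so switch on AKT and mTORC1 and keep the FOXO transcription factors out of the nucleus. IGF binding proteins hold IGFs in the extracellular space, where they can block the ligands or deliver them to the receptors, and Igfbp7 binds IGFs only weakly. In the mammary gland IGF signalling is known for its part in ductal growth, insulin for its part in milk synthesis, and Igfbp5 for its high level in the involuting gland.

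Promoters are shown for 5 of the genes that differed between the lines: the substrate genes Irs1 and Irs2, which went in opposite directions, and 3 binding protein genes, Igfbp2, Igfbp4 and Igfbp5. RefSeq (GRCm38.p6) gave windows for 9 of the 10 genes, 10 windows in all, with Insr not among them. The 250 bases before the annotated start site are printed 5′ to 3′ on the coding strand, in the direction of transcription, with capitals marking the searched motifs. The windows are Irs1 at chr1:82291440-82291689 (minus strand), Irs2 at chr8:11008930-11009179 (minus), Igfbp2 at chr1:72824230-72824479 (plus), Igfbp4 at chr11:99040994-99041243 (plus) and Igfbp5 at chr1:72874866-72875115 (minus).
Irs1: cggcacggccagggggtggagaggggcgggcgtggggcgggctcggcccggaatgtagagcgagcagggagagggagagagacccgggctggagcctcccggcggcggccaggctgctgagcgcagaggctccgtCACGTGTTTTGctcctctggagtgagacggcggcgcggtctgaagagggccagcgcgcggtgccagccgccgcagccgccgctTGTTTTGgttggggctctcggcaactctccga
Irs2: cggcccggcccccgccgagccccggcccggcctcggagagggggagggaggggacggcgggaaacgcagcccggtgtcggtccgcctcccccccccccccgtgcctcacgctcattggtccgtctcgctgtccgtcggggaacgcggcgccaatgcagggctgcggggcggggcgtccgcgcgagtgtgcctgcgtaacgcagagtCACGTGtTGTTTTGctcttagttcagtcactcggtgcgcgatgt
Igfbp2: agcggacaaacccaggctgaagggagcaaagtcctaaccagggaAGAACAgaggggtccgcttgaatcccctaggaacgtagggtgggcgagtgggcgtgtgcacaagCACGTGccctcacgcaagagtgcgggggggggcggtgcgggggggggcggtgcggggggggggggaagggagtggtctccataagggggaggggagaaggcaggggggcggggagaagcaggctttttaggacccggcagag
Igfbp4: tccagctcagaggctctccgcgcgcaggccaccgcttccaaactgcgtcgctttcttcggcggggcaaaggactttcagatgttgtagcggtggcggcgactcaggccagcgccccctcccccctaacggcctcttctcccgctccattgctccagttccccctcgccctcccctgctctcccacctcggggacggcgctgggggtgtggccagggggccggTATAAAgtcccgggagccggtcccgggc
Igfbp5: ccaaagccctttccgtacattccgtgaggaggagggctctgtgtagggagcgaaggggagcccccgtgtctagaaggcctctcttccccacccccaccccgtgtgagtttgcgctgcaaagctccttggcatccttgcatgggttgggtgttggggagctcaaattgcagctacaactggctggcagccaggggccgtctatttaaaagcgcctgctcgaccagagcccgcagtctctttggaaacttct

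Motifs were searched on both strands of these windows, and matches are descriptions of letters only. CAAAACA, the core of the insulin response element, was found on the other strand at -111 and -32 in Irs1 and at -37 in Irs2, counted from the start site to the leftmost base. It was present in 5.56% of the 32851 mouse promoter windows of the same length. The E box CACGTG stood at -115 in Irs1, at -44 in Irs2 and at -142 in Igfbp2, against 6.02% of all windows. In Irs1 the E box at -115 and the CAAAACA match at -111 overlapped. Irs1 and Irs2 thus held the same pair of motifs next to each other near the start site, and a link of these motifs to RNA level was not tested. Igfbp2 also held the glucocorticoid receptor hexamer AGAACA at -206, a motif present in 16.1% of windows. TATAAA was found at -28 in Igfbp4 and, on the other strand, at -148 in Igfbp6, against 12.4% of windows. GTAAACA (forkhead) and TTCNNNGAA (STAT) were in none of the 10 windows and in 3.17% and 7.02% of all windows. CpG dinucleotides numbered 42 in the Igf1r window, 34 in Irs2, 32 in Igfbp3, 28 in Irs1, 26 in Igfbp7, 22 in Igfbp4, 10 in Igfbp5 and 7 in Igfbp6, against a median of 6 over all windows. Igfbp2 had 14 in the printed window and 11 in another, at chr1:72825137-72825386, which is not printed.

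Some libraries stood apart from others of their group, and calls that changed without them are given both ways. DIP libraries 8 and 10 (numbers only name libraries in the order of the series) lay below the other 8 DIP libraries for 4 of the 10 genes, Irs1, Igfbp3, Igfbp5 and Igfbp7, and within their range for the other 6. A set of 185 genes, none of them among the 10, was picked after the values were seen: above 10 CPM on average in HC11 DOX and below 2% of that level on average over all 8 4T1 libraries. Its median was 2.91% and 4.08% of the HC11 DOX level in 4T1 libraries 1 and 2, 1.24% in library 4 and 0.472 to 0.786% in the other 5. The choice fixed the low average, while it treated the 8 libraries alike. All 8 epithelial markers, such as Epcam and Krt8, had a mean of at least 1 CPM in every group. Their summed level was 3525 to 8038 CPM in HC11 DOX, 542 to 2322 CPM with DIP and 2997 to 4319 CPM in 4T1. In HC11 this sum followed the basal keratins: Krt5 averaged 3054, 472 and 31.1 CPM and Krt14 1965, 449 and 247 CPM in HC11 DOX, with DIP and in 4T1. The luminal keratins differed in their pattern, with Krt7 at 33.7, 105 and 1041 CPM, Krt18 at 15.8, 31.9 and 927 CPM and Krt8 at 139, 122 and 1069.5 CPM. Epcam averaged 183, 187 and 70.4 CPM, Cdh1 326, 218 and 354 CPM and Cldn4 28.5, 76.0 and 94.8 CPM. Of the markers of other cells, fibroblast genes summed to 38.1 to 98.8, 20.6 to 268 and 9.49 to 15.8 CPM in those groups. Pecam1 was the only endothelial gene of 4 to average 1 CPM in any group (HC11 DOX), Cd68 was the only leukocyte gene of 5 to do so, and none of the 3 adipocyte genes did. CPM values are library-size-scaled read counts, with trimmed mean of M values (TMM) factors. In bulk RNA, fewer cells of a type and less RNA per cell cannot be told apart.

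**Figure D1:**
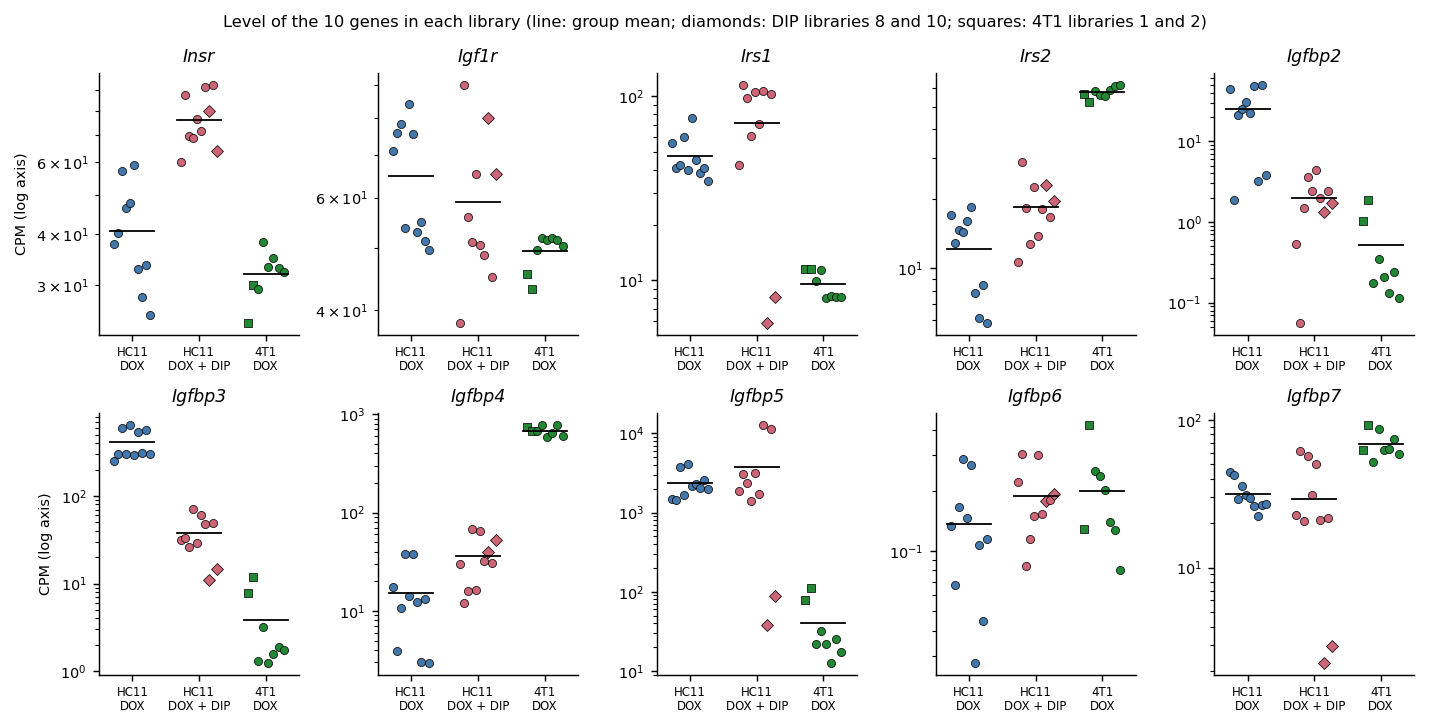
CPM (log axis) of each of the 10 genes in every library, by group; lines are group means, diamonds mark DIP libraries 8 and 10 and squares 4T1 libraries 1 and 2. Insr and Igfbp3 separated the HC11 groups, and Irs2 and Igfbp4 were higher in the 8 4T1 libraries than in any HC11 library.

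With DIP, HC11 cells had more insulin receptor RNA and far less Igfbp3 and Igfbp2 RNA, while the IGF receptor gene Igf1r did not pass the test. Of the 10 genes, 3 rose (Insr, Irs2, Igfbp4) and 2 fell (Igfbp2, Igfbp3). Among all 23829 genes tested 45.5% passed, 24.5% higher and 21% lower, so the share of these genes that passed, 50%, was near the background. Their median log2 fold change was 0.54, against 0.06 for all genes tested. Genes were called by the quasi-likelihood F test of edgeR where the p, adjusted over all genes by Benjamini-Hochberg, was under 0.05. Without DIP libraries 8 and 10, where 52.4% of genes passed (27% higher, 25.4% lower), again 3 of the 10 rose and 2 fell, but Irs1 and Igfbp5 took the place of Irs2 and Igfbp4. Of the epithelial markers given above, the means of Krt5, Krt14, Krt8 and Cdh1 were lower with DIP. Those of Krt7, Krt18, Cldn4 and Epcam were higher, with little difference for Krt8 and Epcam. The part of these markers in the results was not tested.

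In 4T1 the set of binding protein and substrate transcripts differed from that of HC11 DOX: Irs2, Igfbp4 and Igfbp7 were higher, and Irs1, Igfbp2, Igfbp3, Igfbp5, Insr and Igf1r were lower. These 3 higher and 6 lower genes of 10 compare with 69.9% of all 23875 genes tested, 34.3% higher and 35.6% lower. Against HC11 with DIP, 3 genes were higher (Irs2, Igfbp4, Igfbp7) and 5 lower (Insr, Irs1, Igfbp2, Igfbp3, Igfbp5) in 4T1, where 73.8% of 24132 genes passed, 35.9% higher and 37.9% lower. The median log2 difference of the 10 genes was -0.40 and -0.72 in these comparisons, against -0.01 and -0.04 for all genes. Without 4T1 libraries 1 and 2 the counts were 3 higher and 5 lower against HC11 DOX (66.4% of all genes passed, 32.4% higher and 34% lower) and the same against DIP (70.4%, 32.1% and 38.3%). Without DIP libraries 8 and 10 they were 3 and 5 against DIP (79.6%, 39.3% and 40.3%). In CPM the groups did not overlap for 7 of the 10 genes against HC11 DOX, beside 37% of all genes tested, and for 3 against DIP, beside 39.6%. With DIP in HC11 that count was 2, beside 11.4%. The pair of comparisons shares the 4T1 libraries, and the first shares the HC11 DOX libraries, and the other the DIP libraries, with the test of DIP.

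**Figure D2:**
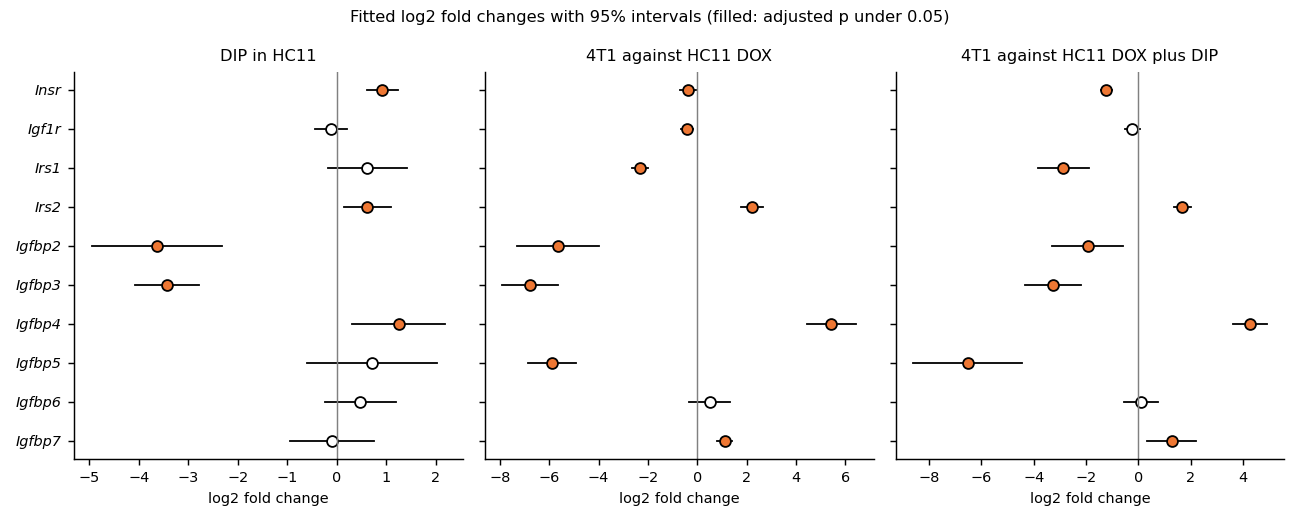
Fitted log2 fold changes (edgeR) of the 10 genes with 95% intervals in the 3 comparisons; filled points have an adjusted p under 0.05. The widest differences were those of the binding proteins, from -6.78 for Igfbp3 to 5.44 for Igfbp4 between 4T1 and HC11 DOX.

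Insr, the insulin receptor gene, ran from 25.4 to 59.0 CPM (median 39.1) in HC11 DOX, from 60.1 to 92.6 (median 73.9) with DIP and from 24.3 to 38.4 (median 32.7) in 4T1. Every DIP library lay above every HC11 DOX and every 4T1 library, while the 4T1 range overlapped the lower HC11 DOX libraries. Groups did not overlap in this direction for 4.76% of all genes tested with DIP. The mean went from 40.8 ± 11.5 to 76.2 ± 11.4 CPM (SD, n = 10 each), which edgeR fitted as a log2 fold change of 0.92 ± 0.15 (SE; 95% interval 0.61 to 1.23; edgeR adjusted p = 3.64e-05). DIP libraries 8 and 10, at 80.0 and 63.8 CPM, were like the other DIP libraries for this gene. In 4T1 (32.0 ± 4.17 CPM, SD, n = 8) Insr was lower than with DIP by a log2 difference of -1.22 ± 0.11 (edgeR adjusted p = 5.6e-09), again with no overlap, as for 18.3% of all genes in that direction. Against HC11 DOX the difference was -0.38 ± 0.16 (edgeR adjusted p = 0.0341), and without 4T1 libraries 1 and 2 it was -0.28 and did not pass (adjusted p = 0.139).

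Igf1r, which encodes the IGF receptor, was the flattest of the receptor and substrate genes. It ran from 49.7 to 84.0 CPM (median 62.9) in HC11 DOX, from 38.2 to 89.9 (median 53.5) with DIP and from 43.2 to 51.9 (median 50.9) in 4T1, so all groups overlapped. DIP gave a log2 fold change of -0.11 ± 0.16 (95% interval -0.44 to 0.21; edgeR adjusted p = 0.587). In 4T1 the level was lower than in HC11 DOX by -0.41 ± 0.11 (edgeR adjusted p = 0.00324). Against DIP the difference of -0.22 ± 0.14 did not pass (edgeR adjusted p = 0.166), though it did with total counts alone as the scaling (-0.52, adjusted p = 0.00369).

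Per kilobase of exon, which allows genes to be compared, the ratio of Insr to Igf1r was 0.624 to 1.05 in HC11 DOX (median 0.726), 1.19 to 2.51 with DIP (median 1.58) and 0.651 to 0.905 in 4T1 (median 0.788). Thus, on this scale, Insr outweighed Igf1r in all 10 DIP libraries, and Igf1r outweighed Insr in 9 of 10 HC11 DOX libraries and in 8 of 8 4T1 libraries. Which gene is the larger depends on the exon lengths used. In CPM, Insr was below Igf1r in DIP library 2 (87.5 and 89.9) and DIP library 10 (63.8 and 65.3). The ratios are descriptions, with no test. DIP libraries 8 and 10 sat at the low end of the DIP range for this ratio but above the HC11 DOX range.

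**Figure D3:**
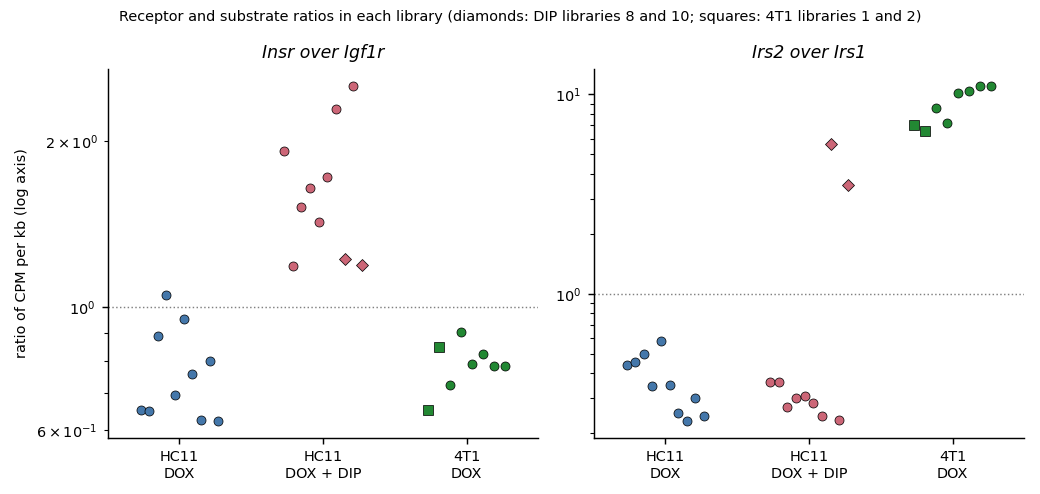
Ratio of CPM per kb of Insr to Igf1r (left) and of Irs2 to Irs1 (right) in each library, on log axes with a dotted line at 1; diamonds mark DIP libraries 8 and 10, squares 4T1 libraries 1 and 2. The DIP libraries lay between 1.19 and 2.51 for the receptors, and the 4T1 libraries between 6.57 and 11.01 for the substrates.

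The substrate genes Irs1 and Irs2, whose products dock PI3-kinase to the receptors, differed in opposite directions between the lines. Irs1 ran from 34.7 to 76.3 CPM (median 41.6) in HC11 DOX and from 7.97 to 11.6 (median 9.04) in 4T1, with no overlap. The means were 47.4 ± 12.9 and 9.59 ± 1.66 CPM, a log2 difference of -2.34 ± 0.16 (edgeR adjusted p = 6.16e-11). With DIP Irs1 split the libraries: 8 held 42.3 to 115 CPM, while libraries 8 and 10 held 5.88 and 8.07 CPM, below and within the 4T1 range. Over all 10 libraries the change with DIP was 0.62 ± 0.39 on the log2 scale and did not pass (edgeR adjusted p = 0.206). Without those libraries it was 0.90 ± 0.19 (adjusted p = 0.000495), and the difference of 4T1 from DIP went from -2.86 ± 0.46 to -3.23 ± 0.19 (edgeR adjusted p = 1.49e-05 and 3.16e-11). Gm9747, which shares exon sequence with Irs1 on the opposite strand, had means of 28.4, 47.4 and 6.55 CPM in HC11 DOX, with DIP and in 4T1. The strand setting of the counts is not given in the sources used here, so reads of this pair cannot be told apart. The ratio of Irs2 to Irs1 carries the same limit. 9530052E02Rik, opposite Irs2, averaged 0.262 to 0.587 CPM.

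Irs2 ran from 5.82 to 18.5 CPM (median 13.6) in HC11 DOX, from 10.6 to 28.9 (median 18.2) with DIP and from 52.2 to 62.0 (median 57.5) in 4T1. All 8 4T1 libraries lay above all 20 HC11 libraries. The log2 difference of 4T1 was 2.22 ± 0.21 from HC11 DOX and 1.69 ± 0.16 from DIP (edgeR adjusted p = 1.13e-08 and 9.81e-09). Groups did not overlap with 4T1 higher for 19.5% and 21.2% of all genes in these comparisons. The rise with DIP was 0.62 ± 0.23 (edgeR adjusted p = 0.0321), from overlapping groups, and did not pass without DIP libraries 8 and 10 (0.55, adjusted p = 0.0639). It also did not pass in 7 of 20 fits that left out a single library, those without DOX library 7, 8, 9 or 10 or DIP library 2, 5 or 8, with adjusted p up to 0.0682.

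Per kilobase, the ratio of Irs2 to Irs1 was 0.2302 to 0.578 in HC11 DOX and 6.57 to 11.01 in 4T1. Irs1 was therefore the more abundant substrate transcript in every HC11 DOX library, and Irs2 in every 4T1 library. In 8 DIP libraries the ratio was 0.232 to 0.363, within the HC11 DOX range, but it was 5.66 and 3.50 in DIP libraries 8 and 10. Those values came with low Irs1, as Irs2 was 23.0 and 19.5 CPM there, within the range of the other DIP libraries.

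Among the binding proteins, Igfbp5 was the most abundant of the 10 transcripts per kilobase in HC11 DOX, with a mean of 391 CPM per kb, followed by Igfbp3 at 131. Igfbp5 encodes the binding protein that is known for binding matrix as well as IGFs. It ran from 1451 to 4090 CPM (median 2128) in HC11 DOX, from 38.6 to 12767 (median 2125) with DIP and from 12.7 to 110 (median 23.8) in 4T1. The DIP group was the most uneven of the 3. Libraries 7 and 9 held 12767 and 11250 CPM, where Igfbp5 was the gene with the most and the 2nd most counts of all (1.32% and 1.20% of counts), while libraries 8 and 10 held 38.6 and 87.97 CPM. The other 6 lay between 1400 and 3154 CPM, inside or just outside the HC11 DOX range. The change with DIP was 0.71 ± 0.63 (95% interval -0.60 to 2.01; edgeR adjusted p = 0.382) on the log2 scale. Without libraries 8 and 10 it was 1.02 ± 0.41 (adjusted p = 0.0416), and limma voom on all libraries gave -0.55 (adjusted p = 0.604), so no direction holds.

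In 4T1 Igfbp5 was lower than in every HC11 DOX library (17.5% of genes did not overlap in that direction), by -5.91 ± 0.47 on the log2 scale (edgeR adjusted p = 7.76e-10). Against DIP the difference was -6.53 ± 1.00 (edgeR adjusted p = 7.96e-06), with overlap through DIP libraries 8 and 10. Without 4T1 libraries 1 and 2, which held 78.7 and 110 CPM, these became -6.74 and -7.42. Igfbp5 stood at 3.35% and 4.69% of the HC11 DOX mean in those libraries and at 0.541 to 1.37% in the other 6. Igfbp2 stood at 4.09% and 7.40% in libraries 1 and 2 and Igfbp3 at 1.88% and 2.93%. The 185 genes described above had medians of 2.91% and 4.08% there, below the values of Igfbp2 and Igfbp5 and above those of Igfbp3.

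Igfbp3, the main carrier of IGFs in blood, ran from 252 to 645 CPM (median 305.5) in HC11 DOX, from 11.1 to 71.2 (median 32.4) with DIP and from 1.25 to 12.0 (median 1.82) in 4T1. The HC11 groups did not overlap, which was so for 6.66% of all genes in that direction. The mean fell from 410 ± 154 to 37.5 ± 19.3 CPM, fitted as a log2 change of -3.44 ± 0.31 (edgeR adjusted p = 9.61e-09), and of -3.23 without DIP libraries 8 and 10, which held 11.1 and 14.6 CPM. In 4T1 it was lower still, by -6.78 ± 0.54 against HC11 DOX and -3.26 ± 0.51 against DIP (edgeR adjusted p = 8.83e-10 and 1.19e-05). These became -7.80 and -4.35 without 4T1 libraries 1 and 2. The order HC11 DOX, DIP, 4T1 thus held for the group levels, with every neighbouring pair past the test and a single overlap, where 4T1 library 2 (12.0 CPM) lay above DIP library 8.

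Igfbp2, a binding protein with a preference for IGF-II, ran from 1.87 to 49.5 CPM (median 23.9) in HC11 DOX, from 0.0565 to 4.39 (median 1.84) with DIP and from 0.116 to 1.85 (median 0.226) in 4T1. HC11 DOX libraries 2, 8 and 10 held 1.87, 3.24 and 3.797 CPM, inside the DIP range, while the other 7 held 21.3 to 49.5. Igfbp2 fell with DIP by -3.64 ± 0.63 on the log2 scale (edgeR adjusted p = 7.32e-05). In 4T1 it was lower by -5.65 ± 0.79 than in HC11 DOX and by -1.93 ± 0.65 than with DIP (edgeR adjusted p = 2.67e-06 and 0.0119). Without 4T1 library 2, at 1.85 CPM, the differences were -6.29 and -2.59, and without libraries 1 and 2 they were -6.94 and -3.29.

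Igfbp4, which encodes an inhibitory binding protein cut by the protease Pappa, was the binding protein transcript that set 4T1 apart. It ran from 2.98 to 37.9 CPM (median 12.7) in HC11 DOX, from 11.9 to 68.8 (median 31.5) with DIP and from 584 to 776 (median 673) in 4T1. The lowest 4T1 library was above the highest HC11 library by more than the whole HC11 range. The mean in 4T1 was 683 ± 74.0 CPM (SD, n = 8), a log2 difference of 5.44 ± 0.48 from HC11 DOX and 4.27 ± 0.31 from DIP (edgeR adjusted p = 3.85e-09 and 2.88e-10). HC11 DOX libraries 2, 8 and 10, which were low for Igfbp2, were low here also, at 3.94, 3.03 and 2.98 CPM against 10.7 to 37.9 in the others. The rise with DIP was 1.25 ± 0.45 (edgeR adjusted p = 0.0281) and did not pass without DIP libraries 8 and 10 (1.14, adjusted p = 0.0555), nor without DIP library 4 (adjusted p = 0.0565) or 6 (0.0535).

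Igfbp7, whose product binds IGFs weakly and is found in basement membrane, ran from 22.4 to 44.3 CPM (median 29.3) in HC11 DOX, from 2.28 to 61.0 (median 22.2) with DIP and from 51.9 to 92.1 (median 62.9) in 4T1. It was higher in 4T1 than in HC11 DOX by 1.10 ± 0.14 with no overlap (edgeR adjusted p = 5.17e-07), and higher than with DIP by 1.29 ± 0.45 with overlap (edgeR adjusted p = 0.0143). With DIP 8 libraries held 20.8 to 61.0 CPM and libraries 8 and 10 held 2.28 and 2.97. The change with DIP was -0.10 ± 0.41 (edgeR adjusted p = 0.865), and 0.19 ± 0.23 without that pair (adjusted p = 0.513). Without it the difference of 4T1 from DIP was 0.93 (adjusted p = 0.00172). Polr2b, which shares exon sequence on the opposite strand, had means of 120, 95.01 and 122 CPM in the HC11 DOX, DIP and 4T1 groups. With the strand setting not given, reads of the sequence shared by Igfbp7 and Polr2b cannot be told apart either. This limit also holds for the share of Igfbp7 given below.

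Igfbp6, another binding protein that prefers IGF-II, was close to silent. It had 0.0277 to 0.288 CPM in HC11 DOX, 0.0845 to 0.305 with DIP and 0.0808 to 0.426 in 4T1, and it was the lowest of the 10 per kilobase in every group by mean. It passed in none of the 3 comparisons (edgeR adjusted p = 0.282, 0.261 and 0.749), and at 5 to 68 counts a library a small difference was not detectable at this depth.

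The composition of the 6 binding protein transcripts, as shares of their summed CPM per kb, put these levels side by side. In HC11 DOX, Igfbp5 made up 62.9 to 74.4% (median 68.6%) and Igfbp3 18.6 to 28.3%. In 8 DIP libraries Igfbp5 made up 72.8 to 98.1% and Igfbp3 0.714 to 7.10%. DIP libraries 8 and 10 had a mixed composition, with Igfbp5 at 29.6% and 42.1% and Igfbp4 at 41.3% and 34.2%. Igfbp4 was thus the leading transcript in DIP library 8 also. In 4T1, Igfbp4 made up 60.3 to 76.4% (median 71.9%), Igfbp7 21.4 to 30.4% and Igfbp5 1.06 to 7.30%. The summed level was 374 to 932 CPM per kb in HC11 DOX, 21.7 to 2167 with DIP and 188 to 254 in 4T1. The leading transcript thus differed between HC11 DOX and 4T1. Minor transcripts varied more between libraries: in HC11 DOX Igfbp2 made up 0.271 to 6.11%, Igfbp4 0.148 to 2.02% and Igfbp7 2.73 to 9.37%.

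**Figure D4:**
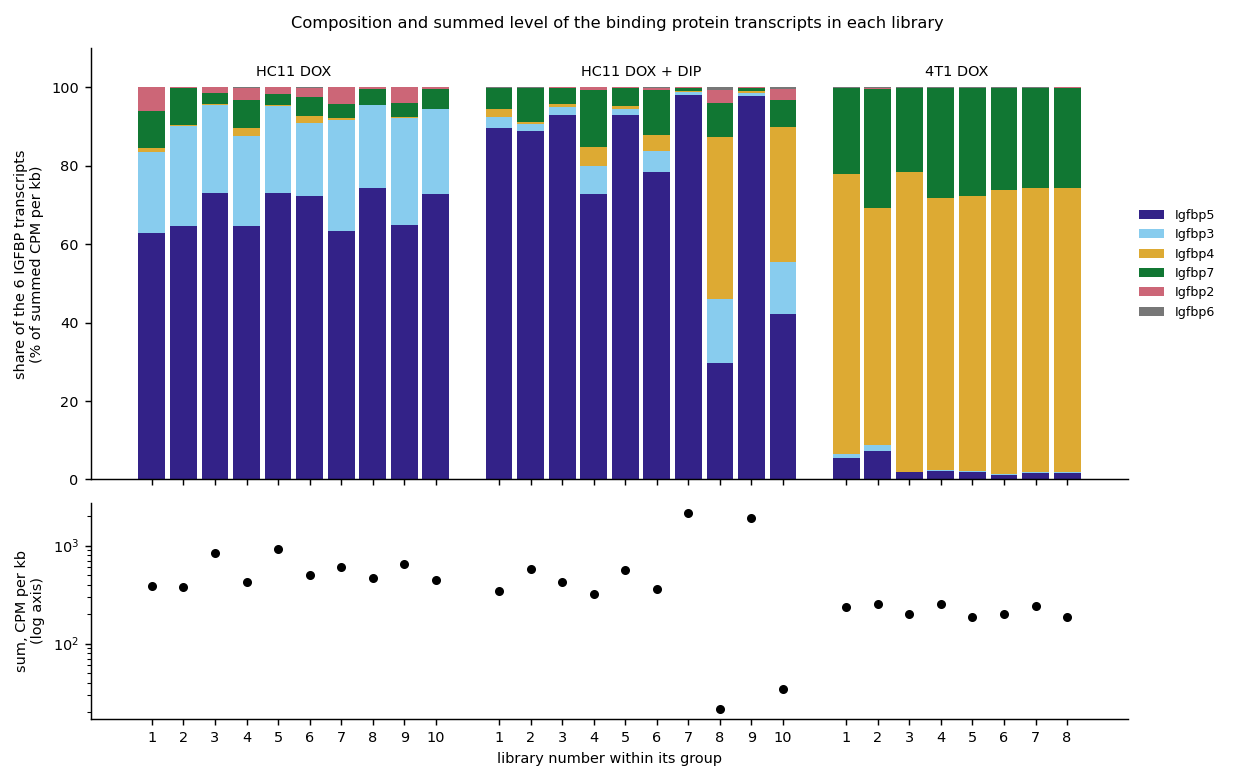
Share of each of the 6 binding protein transcripts in their summed CPM per kb (top, stacked bars, %) and that sum (bottom, points, log axis) in each library. Igfbp5 led in all 10 HC11 DOX libraries and Igfbp4 in all 8 4T1 libraries; in DIP libraries 8 and 10 the sum was 21.7 and 34.8 CPM per kb.

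Around these genes, 71 others of the pathway were listed in 7 groups, from ligands to FOXO targets. No insulin RNA was detected: Ins1 and Ins2 had 0 counts in all 28 libraries, and 3 counts would be 0.0135 to 0.0224 CPM. Igf1 reached at most 0.207 CPM in any library. Igf2 averaged 0.762 CPM in HC11 DOX, 0.413 with DIP and 0.0279 in 4T1, and was lower in 4T1 than in HC11 DOX by -4.79 ± 0.71 on the log2 scale (edgeR adjusted p = 5.06e-06). Igf2r, the clearance receptor for IGF-II, was lower in 4T1 by -0.93 ± 0.08 (edgeR adjusted p = 2.55e-09). Igf2 and Igf2r are named as the only tested genes of their lists in the comparison of the lines.

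With DIP, 20 of 61 tested pathway genes rose and 9 fell, together 47.5%, close to the background of 45.5% (24.5% higher and 21% lower), against which the counts of each list below can be read. In the list of FOXO factors and targets, 7 of 11 tested genes rose and 0 fell. The list's median was 1.34 on the log2 scale, against 0.06 for all genes. Limma voom called 3 of the 11, and 9 of 12 tested rose without DIP libraries 8 and 10 (edgeR). The metabolic regulator Klf15 went from 0.0742 to 0.740 CPM in HC11 DOX to 1.25 to 63.1 with DIP, a change of 6.42 ± 0.69 on the log2 scale (edgeR adjusted p = 1.37e-07). Foxo3 itself rose by 1.90 ± 0.23 and Txnip, an inhibitor of thioredoxin and of glucose uptake, by 2.36 ± 0.64 (edgeR adjusted p = 9.33e-07 and 0.00478). For Txnip the groups overlapped, at 19.4 to 115 CPM in HC11 DOX and 12.2 to 592.5 with DIP. Klf15 is known as a direct target of the glucocorticoid receptor as well as a gene of the insulin-regulated programme.

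In the mTORC1 list, 7 of 13 genes rose with DIP and 0 fell. They were both activating and restraining parts of the pathway: the kinase gene Mtor, its partner Rptor and the activator Rheb, and also Tsc1 and Deptor, which restrain mTORC1, with Rictor of mTORC2 and the kinase Gsk3b. Without DIP libraries 8 and 10, 6 of 13 rose: Rptor (0.18, edgeR adjusted p = 0.117) and Rictor (0.38, adjusted p = 0.148) did not pass, and Ddit4, an inhibitor of mTORC1, did (0.74, adjusted p = 0.0125). Deptor rose most, from 12.5 to 35.9 CPM in HC11 DOX to 10.4 to 265 with DIP (log2 fold change 2.59 ± 0.44, edgeR adjusted p = 6.26e-05), and the lowest DIP library was below all HC11 DOX libraries. Of the 15 PI3K and AKT genes 3 rose and 4 fell, a share near the background. Pik3r1, the main regulatory subunit of PI3-kinase, rose by 2.33 ± 0.39 (edgeR adjusted p = 5.43e-05). Of 15 adaptors and receptor regulators 2 rose and 4 fell, also near it. Enpp1, an inhibitor of the insulin receptor, rose by 2.38 ± 0.56 and Socs3, an inhibitor of cytokine and insulin signalling, fell by 1.60 ± 0.24 with no overlap (edgeR adjusted p = 0.0014 and 1.41e-05). For Enpp1 the groups overlapped, at 18.1 to 72.1 CPM in HC11 DOX and 4.1 to 378 with DIP. Of the binding protein proteases and their inhibitors, 1 of 4 tested rose (Stc2, an inhibitor of Pappa, 1.31 ± 0.23) and 1 fell (Htra1, a protease known to cut Igfbp5, -0.77 ± 0.23; edgeR adjusted p = 8.16e-05 and 0.0104).

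In 4T1, 11 of 61 tested pathway genes were higher and 35 lower than in HC11 DOX, together 75.4%, against 34.3% and 35.6% of all genes. Against DIP, 9 of 59 were higher and 36 lower, where 35.9% and 37.9% of all genes were. In the FOXO list 0 were higher and 8 of 11 lower than in HC11 DOX, and 0 and 10 of 11 against DIP. Foxo6 differed by -5.68 ± 0.38, the stress gene Sesn3 by -3.72 ± 0.24 and Txnip by -2.75 ± 0.42 from HC11 DOX (edgeR adjusted p = 6.41e-11, 3.36e-11 and 7.48e-06). Against DIP, Klf15 differed by -8.44 ± 0.79, Foxo6 by -5.07 ± 0.45 (-5.68 without 4T1 libraries 1 and 2) and Txnip by -5.02 ± 0.78 (edgeR adjusted p = 1.29e-08, 6.07e-09 and 9.96e-06).

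The proteases that cut binding proteins differed sharply between the lines. Pappa, which cuts Igfbp4, ran from 5.22 to 18.1 CPM in HC11 DOX and from 0.0563 to 0.657 in 4T1, a log2 difference of -5.76 ± 0.52, and of -6.66 without 4T1 libraries 1 and 2. Its relative Pappa2, which cuts Igfbp5 and Igfbp3, differed by -6.09 ± 0.63 (edgeR adjusted p = 5.78e-09 and 4.37e-08 for the pair). The 4T1 libraries, with the highest Igfbp4, thus all had Pappa below 1 CPM. Htra1 was higher by 1.15 ± 0.17 (81.9 to 218 CPM in HC11 DOX, 260 to 439 in 4T1; edgeR adjusted p = 4.57e-06). Against DIP, 2 of 5 tested genes of this list were higher and 3 lower in 4T1, with Htra1 at 2.001 ± 0.22 and Pappa at -5.98 ± 0.50, or -6.95 without 4T1 libraries 1 and 2 (edgeR adjusted p = 1.53e-07 and 2.37e-09). Stc1, which like Stc2 encodes an inhibitor of Pappa and was picked after its values were seen, averaged 0.0220 CPM in HC11 DOX, 0.131 with DIP and 3.57 in 4T1.

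Downstream of the receptors, 10 of 15 adaptors and regulators were lower and 2 higher in 4T1 than in HC11 DOX, and 9 of 15 PI3K and AKT genes were lower and 4 higher. Among all genes 35.6% were lower and 34.3% higher. Gab1, a docking protein next to the substrates, differed by -3.66 ± 0.18, Enpp1 by -3.92 ± 0.32 and the receptor phosphatase Ptprf by -2.31 ± 0.14. The PI3-kinase regulatory subunits Pik3r3, Pik3r2 and Pik3r1 were lower by -4.66 ± 0.34, -1.57 ± 0.11 and -1.45 ± 0.17. For these 6 genes the edgeR adjusted p was at most 1.67e-07, and the groups did not overlap. The 6 were named for having the largest fold changes of their lists, and 17.5% of all genes tested did not overlap in that direction. Of 13 mTORC1 genes 2 were higher and 4 lower than in HC11 DOX, together a smaller share than the 69.9% of all genes, Gsk3b (-1.54 ± 0.11) and Rptor (-1.08 ± 0.10) among the lower (edgeR adjusted p = 1.47e-10 and 1.13e-08). With total counts alone as the scaling, which moved the median of all genes to -0.24, 8 of the 13 were lower.

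Against HC11 with DIP the counts of these lists are read beside a background in which 35.9% of all genes were higher in 4T1 and 37.9% lower. Of 13 tested adaptors and regulators 2 were higher and 5 lower. Gab1 differed by -3.17 ± 0.19, Ptprf by -1.84 ± 0.23 and Enpp1, with overlapping groups, by -6.22 ± 0.73 (edgeR adjusted p = 1.42e-11, 6.4e-07 and 3.03e-07). Of 15 PI3K and AKT genes 3 were higher and 9 lower, with Pik3r1 at -3.70 ± 0.45 and Pik3r3 at -3.63 ± 0.33 (edgeR adjusted p = 4.21e-07 and 7.64e-09). The kinase gene Akt1 was among the higher, by 1.75 ± 0.12 (edgeR adjusted p = 1.88e-10), with 415 to 544 CPM against 88.2 to 179. Of 13 mTORC1 genes 2 were higher and 7 lower, with Gsk3b at -1.96 ± 0.09, Rptor at -1.42 ± 0.17 and Deptor, with overlap, at -1.78 ± 0.47 (edgeR adjusted p = 2.93e-13, 2.64e-07 and 0.00227).

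**Figure D5:**
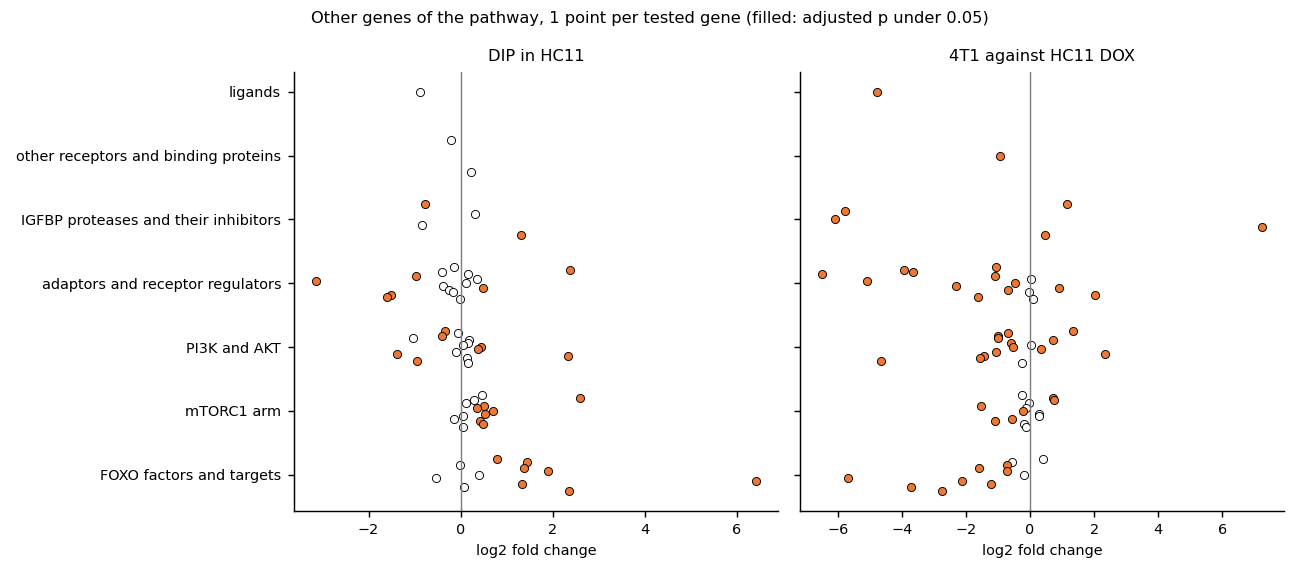
Log2 fold changes (edgeR) of the tested genes of 7 pathway lists with DIP in HC11 (left) and in 4T1 against HC11 DOX (right), 1 point per gene, filled where the adjusted p is under 0.05. In the FOXO list all 7 filled points lay to the right with DIP and all 8 to the left in 4T1.

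The genes most alike in pattern were found by the root mean square (rms) difference of log2 CPM over the 28 libraries, each gene centred on its own mean, among 10363 genes; this is a description of likeness. Insr was nearest to Nbr1 (rms 0.182) and Tmem135 (0.192), and Igf1r to Phf13 (0.194) and Ube4b (0.217). Irs1 was nearest to Lamb3 (0.393), a laminin chain gene, and Chst11 (0.404), and Irs2 to Sgms2 (0.347) and Spred3 (0.397). Igfbp3 was nearest to the basal keratin gene Krt5 (0.649) and Ptn (0.750), and Igfbp4 to the class I histocompatibility genes H2-D1 (0.702) and H2-Q7 (0.791). Igfbp5 was nearest to Nrep (0.624) and Fxyd3 (0.680), and Igfbp7 to Capg (0.435) and Paqr4 (0.456). The binding proteins had more distant neighbours than the receptors. The measure was not scaled to the spread of each gene, so genes with wide differences lie further from others. The larger distances therefore do not show less likeness. Igfbp2 and Igfbp6 were below the level required. Within the set the closest pair on this unscaled measure was Insr and Igf1r (0.580), although only Insr passed the test of DIP.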

How the data were processed

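Whole-number read counts per gene were deposited by the authors, 1 file for each of 28 libraries over 56748 Ensembl identifiers, with no normalization or filter seen in the files. Per the submitters' processing notes, fastp 0.23.2 and featureCounts 2.0.1 were used with build GRCm39. For the aligner and strandedness, the answer is not given in the sources used here. Symbols and exon lengths came from GENCODE vM21 (52073 identifiers named, 4675 not) and promoter sequences from RefSeq GRCm38.p6; both are of an earlier build than the counts, so they were used for names, lengths and sequences only.

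Groups came from the cell line and treatment labels. Each comparison was fitted on its 2 groups alone over the whole table with edgeR 4.0.16 under R 4.3.3 (filterByExpr, TMM factors, robust glmQLFit, glmQLFTest, Benjamini-Hochberg adjustment, threshold 0.05); standard errors are the log2 fold change over the square root of F. TMM factors for CPM were computed over the 28 libraries together; a prior count of 2 was added for log2 CPM. The procedure was tested on simulated data. The simulated libraries were drawn independently, with no close pairs and none that stand apart, so the simulation does not cover those features of the data. Alternatives were relative log expression factors, total counts alone, no filter, DESeq2 1.42.0, limma 3.58.1 voom, a fit of all 3 groups and leaving out each library; fits without DIP libraries 8 and 10 and without 4T1 libraries 1 and 2 were added after seeing the data.

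Members, gene lists and tests were chosen with earlier results of these data known. Besides the 10 genes, the text names per list and comparison the 3 called genes of largest log2 fold change (1 or more, at a mean log2 CPM no lower than 2), and the 2 most alike genes of each member. Others are marked or are the full list of called genes. A depth of 134117581 to 222065843 counts puts 3 counts at 0.0135 to 0.0224 CPM; this covers counting error only.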

Additional observations from a re-analysis of the deposited data

How the results depend on the processing

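The counts of members and of pathway genes called in each direction stayed within 1.5 times their values under every alternative and in every fit that left out a library. No paired analysis was possible because the labels give no replicate, culture or batch number, and library numbers only name samples. Directions that turned were those of genes that had not passed: Igfbp5 with DIP under limma voom (-0.55), Igfbp7 with DIP without DIP libraries 8 and 10 (0.19) and across fits without a single library (-0.30 to 0.038), and Igfbp6 in 4T1 against DIP with total counts alone (-0.19), without 4T1 libraries 1 and 2 (-0.13) and across fits without a single library (-0.13 to 0.24). The cause was not tested. Igfbp4 with DIP (adjusted p = 0.0516) and Insr in 4T1 against HC11 DOX (0.0558) missed the threshold without the filter on low counts, and the latter also under limma voom (0.0655) and in 6 of 18 fits without a single library (adjusted p 0.00924 to 0.0837). Irs1 with DIP passed without DIP library 8 (0.0498). Igf1r in 4T1 against DIP passed with relative log expression factors (0.0437) and DESeq2 (0.0409). The median of all genes moved to -0.34 with total counts alone and to -0.37 without the filter in 4T1 against DIP.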

Other observations

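Over the 10 genes, many libraries of a group lay near each other in pairs, by the root mean square difference of log2 CPM. In HC11 DOX libraries 8 and 10 differed by 0.141, 7 and 9 by 0.184, 3 and 5 by 0.243 and 4 and 6 by 0.302, against median distances to the rest of the group of 0.777 to 1.63. With DIP libraries 7 and 9 differed by 0.150, 3 and 5 by 0.415, 4 and 6 by 0.451 and 8 and 10 by 0.500. The same 4 pairs of numbers were thus close in both HC11 groups. HC11 libraries 1 and 2 were in no such pair. Their nearest libraries lay at 0.586 and 0.623 in HC11 DOX and at 0.857 and 1.40 with DIP. Of the 4T1 libraries, 3 and 5 differed by 0.199 and 6 and 8 by 0.281, against median distances to that group of 0.436 to 0.547. The numbers come from the order of the series and pair nothing by label, and the labels give nothing that these pairs could stand for. Whether the libraries of a pair were independent could not be tested. DIP library 8 lay at a median of 3.21 from the HC11 DOX libraries, 2.74 from the other DIP libraries and 2.44 from the 4T1 libraries, and library 10 at 2.82, 2.32 and 2.45.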
